A study of Mus musculus with 6 samples.

Results

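The genes described here encode the vascular endothelial growth factors (VEGF), their receptors and the neuropilin co-receptors. The members were chosen by symbol and are Vegfa, Vegfb, Vegfc, Pgf, Flt1, Kdr, Flt4, Nrp1 and Nrp2. Of these 9 genes, 8 were analysed among 15398 genes, and 7 had enough reads to be tested among 11722. Flt4, the receptor known best from lymphatic vessels, was not analysed here. RNA sequencing was done on 6 libraries of mouse cells labelled bEND.3, a brain endothelial line. In 3 libraries the cells stably expressed circSlc17a5, a circular RNA named after Slc17a5, and in 3 control libraries they carried the matching empty vector. The series title places circSlc17a5 in the control of blood vessel growth in the eye. The sources used here do not name the vector or give its promoter, the number of clones or whether each replicate was a culture of its own. The p-values therefore measure the spread between these libraries, which may be technical.

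VEGF ligands are secreted dimers that act through receptor tyrosine kinases on endothelial cells. Vegfa signals chiefly through Kdr, while Flt1 binds Vegfa, Vegfb and Pgf tightly and also exists as a soluble form that traps them. Vegfc acts on Flt4 and on Kdr, and the neuropilins Nrp1 and Nrp2 bind ligands beside these receptors and serve as receptors for class 3 semaphorins as well.

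Cells with circSlc17a5 had 1.52-fold more Nrp2 transcript and 1.62-fold more Pgf transcript than control cells, and 1.34-fold less Vegfc. Vegfa, the most abundant ligand, Vegfb, Flt1 and Nrp1 did not pass the test. Kdr was close to absent from every library. Among the transcript forms of these genes, the share of soluble Flt1 overlapped between the groups. The shares of transcripts for the 3 Vegfa proteins of different length overlapped as well. Those of the longer Vegfa and Pgf transcripts, of Vegfb186 and of the Nrp2 b forms did not (exact permutation, adjusted p = 0.225 each).

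Several of these genes make proteins that differ only after a splice junction, and the coding sequence at those junctions is shown because the shares of these forms rest on reads that tell them apart. Each line gives 30 bases shared by the forms of a gene in lower case, followed in capitals by up to 45 coding bases found only in the named form at that point, read 5′ to 3′ on the coding strand from the GRCm38 genome with the GENCODE M21 annotation. For Flt1 the forms part after base 147639225 of chromosome 5 (minus strand), for Vegfa after base 46024065 of chromosome 17 (minus strand), for Vegfb after base 6985805 of chromosome 19 (minus strand) and for Nrp2 after base 62786301 of chromosome 1 (plus strand).
full-length Flt1: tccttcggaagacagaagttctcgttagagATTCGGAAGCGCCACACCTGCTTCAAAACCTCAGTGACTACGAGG
soluble Flt1: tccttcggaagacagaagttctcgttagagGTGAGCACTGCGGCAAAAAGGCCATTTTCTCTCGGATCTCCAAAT
Vegfa120: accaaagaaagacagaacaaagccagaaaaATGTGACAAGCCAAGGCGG
Vegfa164: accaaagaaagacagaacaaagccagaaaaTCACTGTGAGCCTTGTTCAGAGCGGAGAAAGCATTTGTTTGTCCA
Vegfa188: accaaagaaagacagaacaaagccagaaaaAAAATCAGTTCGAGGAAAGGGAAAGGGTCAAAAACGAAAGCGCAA
Vegfb186: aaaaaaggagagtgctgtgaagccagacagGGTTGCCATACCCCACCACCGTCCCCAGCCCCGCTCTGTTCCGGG
Vegfb167: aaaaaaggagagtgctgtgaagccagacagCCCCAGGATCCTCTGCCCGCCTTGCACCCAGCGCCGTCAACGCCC
Nrp2a0: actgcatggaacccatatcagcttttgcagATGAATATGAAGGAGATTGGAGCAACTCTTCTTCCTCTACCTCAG
Nrp2a17: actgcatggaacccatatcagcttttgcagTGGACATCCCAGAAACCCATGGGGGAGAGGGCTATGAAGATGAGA
Nrp2b0: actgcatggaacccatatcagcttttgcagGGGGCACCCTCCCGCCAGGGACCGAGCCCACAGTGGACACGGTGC
The first base of the capitals in soluble Flt1 directly follows the shared exon in the genome, so this form reads on into what is an intron of the full-length form and ends 92 coding bases later, while the full-length form continues for 2027. Vegfa120 has 19 coding bases after the junction, Vegfa164 has 151 and Vegfa188 has 223. The a and b forms of Nrp2 share 2425 coding bases and differ in the stretch that holds the end of the protein inside the cell.

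Library totals lay between 16848513 and 17600230 counts. A gene was called changed at an adjusted p under 0.05 in edgeR's quasi-likelihood test with Benjamini-Hochberg adjustment over all tested genes, which called 2584 of 11722 genes (22.0%), 1386 higher (11.8%) and 1198 lower (10.2%). The median log2 fold change of all tested genes was -0.00242. For the gene Slc17a5 the log2 fold change was 0.44 (SE 0.093, adjusted p = 0.0133, edgeR). These counts do not separate linear from circular RNA and so measure neither alone. On the first principal component of the libraries control 1 stood at -5.49, nearer to the circSlc17a5 libraries (15.6 to 26.4) than control 2 at -34.0 and control 3 at -21.5. The labelled cell type was checked against 17 endothelial markers, of which 14 had a row. The mean level of 12 of these was under 1 FPKM (fragments per kilobase of transcript, scaled to library size), including Pecam1 at 0.172, Cdh5 at 0.398 and Tek at 0.0133. Plvap and Egfl7 stood at 10.2 and 13.7 FPKM. Krt8 and Krt18, keratins of simple epithelia, stood at 403 and 1000 FPKM, while Epcam and Cdh1 of the same list stood at 0.858 and 0.0183. A further gene of that list, Krt19, stood at 384 FPKM. Of the endoderm genes with a row, Sparc, Snai1, Dab2, Foxa2 and Gata6 stood at 446, 43.0, 14.7, 9.64 and 9.15 FPKM. The others, Sox7, Pth1r and Thbd, stood at 0.0133, 0.05 and 0.588. Of the trophoblast genes with a row, Cdx2, Eomes and Gata3 stood at 4.01, 3.67 and 3.61 FPKM. Plac1, Tfap2c and Ascl2 stood at 0.99, 0.015 and 0.00667. The defining endothelial genes were thus nearly absent, and the libraries are named below by their labels.

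Of the 7 tested members, Nrp2 and Pgf were called higher and Vegfc lower, or 42.9% against 22.0% of all tested genes, which rests on 3 genes. Normalised CPM (counts scaled to a common library total and by the TMM factors of edgeR) did not overlap between the groups for 4 of the 7, against 42.6% of all tested genes. In these bulk libraries fewer cells with a transcript and less transcript per cell cannot be told apart. Levels are compared between genes only in FPKM, which takes length into account. In control cells the order was Vegfa (109 ± 9.0 FPKM, SD, n = 3), Vegfb (49.1 ± 7.7), Vegfc (10.5 ± 0.58), Flt1 (7.83 ± 0.58), Nrp2 (5.09 ± 0.79), Pgf (2.97 ± 0.52), Nrp1 (0.21 ± 0.017) and Kdr (0.0067 ± 0.0058). No neighbours in this order overlapped across the control libraries. In circSlc17a5 cells Vegfa (120 ± 6.2 FPKM) and Vegfb (40.5 ± 4.7) again led. They were followed by Flt1 (9.59 ± 1.3), Nrp2 (8.33 ± 0.98) and Vegfc (8.29 ± 0.45), and there Flt1 overlapped Nrp2 and Nrp2 overlapped Vegfc. Pgf (4.76 ± 0.13), Nrp1 (0.19 ± 0.053) and Kdr (0.03 ± 0.035) came last.

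**Figure D1:**
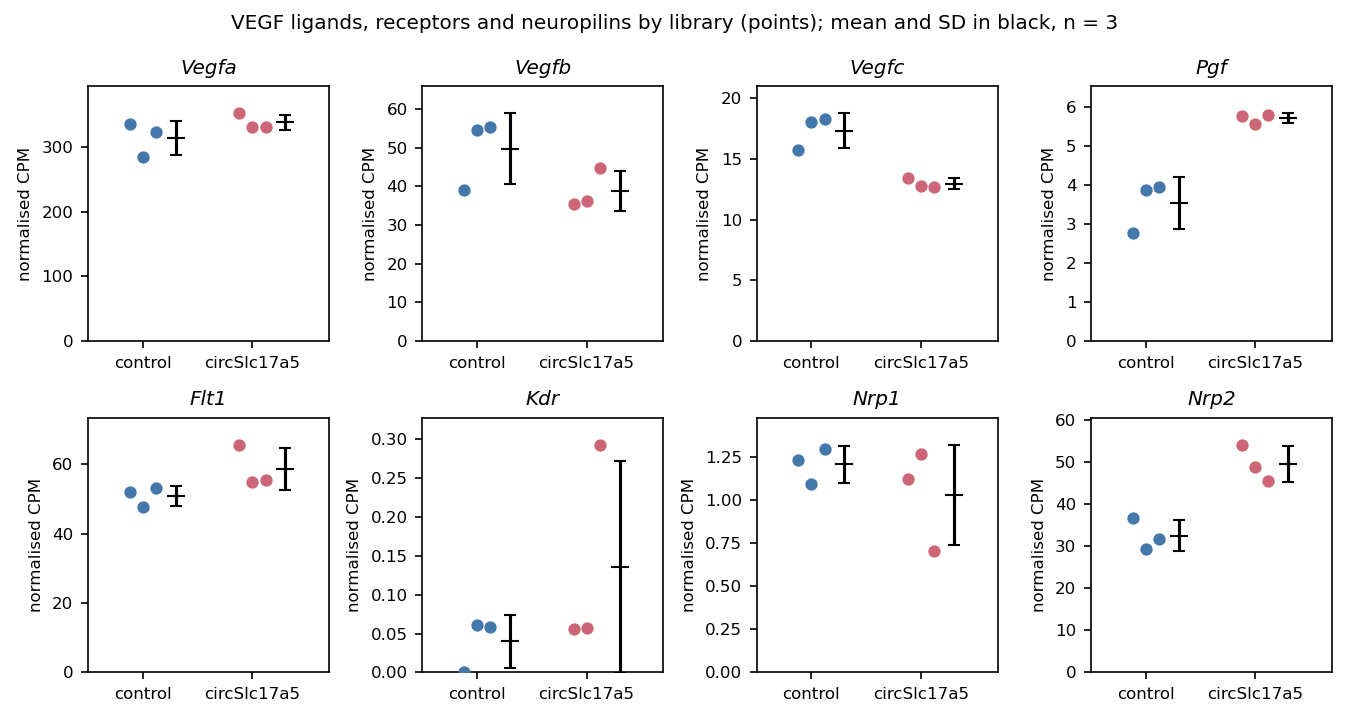
Normalised CPM (vertical axis) of the 8 member genes in the 3 control (blue) and 3 circSlc17a5 (red) libraries, with the mean and SD in black. The groups do not overlap for Vegfc, Pgf, Flt1 and Nrp2, and Kdr stays under 0.30 CPM in every library.

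Vegfa (gene ID 22339, chromosome 17, 46016993 to 46032377, minus strand), the main driver of vessel sprouting, had 5704, 4701 and 5477 counts in control libraries 1, 2 and 3 and 6295, 5768 and 5651 in circSlc17a5 libraries 1, 2 and 3. As normalised CPM these were 335, 284 and 323 against 352, 331 and 331. The circSlc17a5 value of library 2 lay below control 1, so the groups overlapped. The log2 fold change was 0.11 (SE 0.080, adjusted p = 0.334, edgeR), and its approximate 95% interval reached from -0.05 to 0.26.

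The 10 transcript models of Vegfa were summed by the protein they encode. Vegfa120 lacks the heparin-binding stretch and diffuses freely, Vegfa164 binds heparin and neuropilins, and Vegfa188 stays on the matrix. Vegfa164 held 51.0% ± 2.8 (SD, n = 3) of the gene's TPM (a length-scaled share of all transcripts in a library) in control and 50.3% ± 1.7 in circSlc17a5 libraries. Vegfa120 held 43.6% ± 2.1 (SD, n = 3) in control and 44.4% ± 2.0 in circSlc17a5 libraries. Vegfa188 held 5.45% ± 0.79 and 5.28% ± 0.55. All 3 shares overlapped between the groups (exact permutation p = 0.6 to 0.8, two-sided).

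The same models fall into a longer and a shorter set, whose Vegfa120 and Vegfa164 members differ in effective length by 689 and 690 bases. The short models were matched to protein forms by the steps in effective length between them, and the tables do not say where along the transcript the sets differ. The longer models held 61.7%, 39.4% and 53.4% of Vegfa TPM in control libraries 1, 2 and 3 and 68.8%, 66.5% and 63.7% in circSlc17a5 libraries. All 3 circSlc17a5 values were above all controls, with control 2 standing lowest. The difference was 14.8 percentage points (exact permutation p = 0.1, two-sided, the smallest that 3 against 3 allows, 0.225 adjusted over the 9 shares). In expected counts the longer models had a mean of 3087 ± 873 (SD, n = 3) in control and 4241 ± 375 in circSlc17a5 libraries without overlap. The shorter had 2207 ± 357 and 1664 ± 61.4 expected counts, also without overlap, but their TPM overlapped, since control 1 (41.4) lay below circSlc17a5 library 1 (41.9).

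Vegfb (gene ID 22340, chromosome 19, 6982472 to 6987651, minus strand), a ligand of Flt1 known for its part in fatty acid uptake by vessels, had 668, 903 and 942 counts in controls and 632, 632 and 766 in circSlc17a5 libraries. Control 1 lay below the highest circSlc17a5 library, and the other controls lay above all of them. The log2 fold change was -0.36 (SE 0.139, adjusted p = 0.0843, edgeR). Without control 1 the call changed, with a log2 fold change of -0.51 and an adjusted p of 0.00287. When the fit held an offset for transcript length and GC content the log2 fold change was -0.12 (adjusted p = 0.369, edgeR). Vegfb186, the freely soluble form, held 71.7%, 70.5% and 70.3% of Vegfb TPM in controls and 74.2%, 72.9% and 76.7% in circSlc17a5 libraries. These shares did not overlap, and they differed by 3.76 points (exact permutation p = 0.1, adjusted 0.225). The log2 fold change of heparin-binding Vegfb167 was -0.59 (SE 0.218, adjusted p = 0.316, edgeR on transcripts), and that of Vegfb186 was -0.29 (SE 0.187, adjusted p = 0.528).

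Vegfc (gene ID 22341, chromosome 8, 54077532 to 54186454, plus strand), the main growth factor of lymphatic vessels, had 268, 298 and 311 expected counts in controls and 241, 222 and 217 in circSlc17a5 libraries. Every control lay above every circSlc17a5 library, with mean CPM of 17.4 ± 1.4 and 13.0 ± 0.43 (SD, n = 3). The level was 1.34-fold lower (log2 fold change -0.42, SE 0.0996, adjusted p = 0.0198, edgeR). The log2 fold change stayed between -0.49 and -0.38 with any 1 library left out. The call was lost without control 2, without control 3 and without each circSlc17a5 library in turn (adjusted p = 0.0523 to 0.0725) and held without control 1 (0.00295). The listed span of Vegfc overlaps that of another gene with a locus name, and the sources used here do not say whether reads were counted by strand.

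Vegfd, taken up only as the remaining ligand of the family, had CPM of 10.1, 12.2 and 11.5 in controls and 7.15, 8.20 and 9.66 in circSlc17a5 libraries. It was called lower as well, without overlap (log2 fold change -0.43, SE 0.137, adjusted p = 0.0455, edgeR). That call held in 2 of the 6 fits with 1 library left out, in which the adjusted p reached 0.177.

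Pgf (gene ID 18654, chromosome 12, 85166637 to 85177785, minus strand), placental growth factor, binds Flt1 and not Kdr. It had 47, 64 and 67 counts in controls and 103, 97 and 99 in circSlc17a5 libraries. All 3 circSlc17a5 libraries lay above all controls, and control 1 was the lowest. Mean CPM was 3.52 ± 0.67 in control and 5.71 ± 0.12 in circSlc17a5 libraries (SD, n = 3), and the log2 fold change was 0.70 (SE 0.167, adjusted p = 0.0205, edgeR). The call was lost when any circSlc17a5 library was left out (adjusted p up to 0.0847), while the log2 fold change stayed between 0.54 and 0.78.

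Pgf reads were divided between a longer and a shorter transcript. The longer had 22.8, 36.2 and 31.9 expected counts in controls and 85.3, 55.2 and 79.0 in circSlc17a5 libraries. The shorter had 21.5, 27.8 and 35.1 against 13.9, 41.8 and 17.3. The longer transcript therefore held 42.7%, 49.5% and 40.4% of Pgf TPM in controls and 80.0%, 49.7% and 75.8% in circSlc17a5 libraries, and circSlc17a5 library 2 lay just above the highest control. This difference of 24.3 points had an exact permutation p of 0.1 (adjusted 0.225).

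Flt1 (gene ID 14254, chromosome 5, 147561604 to 147726438), VEGF receptor 1, was the only receptor tyrosine kinase of the set with an appreciable level among those analysed. It had 887, 789 and 903 counts in controls and 1174, 957 and 945 in circSlc17a5 libraries. As CPM the groups did not overlap, at 52.0, 47.7 and 53.2 against 65.6, 54.9 and 55.3, with circSlc17a5 library 1 apart from the others. The log2 fold change was 0.20 (SE 0.0905, unadjusted p = 0.0483, adjusted p = 0.125, edgeR) and was not called. Under the same offset it was -0.02 (adjusted p = 0.87, edgeR), so its sign depended on the fit. The gene table gives Flt1 the plus strand, whereas the GENCODE annotation puts it on the minus strand.

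Soluble Flt1 lacks the membrane and kinase parts of the receptor. It had 357, 376 and 392 expected counts in controls and 465, 362 and 389 in circSlc17a5 libraries, while full-length Flt1 had 526, 411 and 508 against 692, 587 and 549. The soluble form overlapped between the groups, with a log2 fold change of 0.05 (SE 0.127 and adjusted p = 0.891, edgeR on transcripts). For the full-length form the log2 fold change was 0.28 (SE 0.128, adjusted p = 0.388). Of Flt1 TPM, the soluble form held 42.4%, 49.9% and 45.5% in controls and 40.9%, 39.6% and 42.9% in circSlc17a5 libraries. Control 1 fell within the circSlc17a5 range, and the difference of -4.80 points had an exact permutation p of 0.2 (two-sided, adjusted 0.36).

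Kdr (gene ID 16542, chromosome 5, 75932827 to 75979072, minus strand), VEGF receptor 2, had 0, 1 and 1 counts in controls and 1, 1 and 5 in circSlc17a5 libraries. These counts were too low to test. The sums of 2 and 7 counts give a ratio of 3.57 with an exact 95% interval of 0.679 to 35.2, which covers counting error only and includes equality. The 5 counts of circSlc17a5 library 3 made up most of that group's sum.

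Nrp1 (gene ID 18186, chromosome 8, 128358591 to 128505476, plus strand), the neuropilin that binds Vegfa164, was also low, with 21, 18 and 22 counts in controls and 20, 22 and 12 in circSlc17a5 libraries. The groups overlapped, and the log2 fold change of -0.23 (SE 0.282, adjusted p = 0.572, edgeR) was smaller than its error. Its reads were assigned to different transcript models in different libraries, so that 1 model listed 19.7, 13.8 and 0 expected counts in controls and 0 in all circSlc17a5 libraries, and another listed 0, 0 and 18.5 and then 18.3, 22.0 and 9.59. No form of Nrp1 was therefore compared.

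Nrp2 (gene ID 18187, chromosome 1, 62703317 to 62818692, plus strand), the neuropilin that binds Vegfc and Sema3f, had 625, 486 and 538 counts in controls and 969, 852 and 778 in circSlc17a5 libraries. In CPM the controls stood at 36.7, 29.4 and 31.7 and the circSlc17a5 libraries at 54.2, 48.9 and 45.6. The lowest circSlc17a5 library was well above the highest control. The log2 fold change was 0.60 (SE 0.102, adjusted p = 0.00588, edgeR), and it was called with each library left out in turn (adjusted p = 0.000409 to 0.0386). Of the 3 called members, Nrp2 was the only one whose call held in all 6 of these fits. Under the offset for length and GC content the log2 fold change was 0.40 (adjusted p = 0.00432, edgeR).

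The a and b forms of Nrp2 carry different ends inside the cell, and the a forms end in a motif that binds PDZ proteins. Nrp2a17 had 382, 270 and 326 expected counts in controls and 533, 597 and 410 in circSlc17a5 libraries, without overlap. Its log2 fold change was 0.60 (SE 0.188, adjusted p = 0.269, edgeR on transcripts). Nrp2b0 had 53.8, 26.9 and 18.1 against 132, 78.1 and 63.6, without overlap, and its log2 fold change was 1.40 (SE 0.555, adjusted p = 0.336). Nrp2a0 had 127, 186 and 189 against 246, 65.5 and 227, and circSlc17a5 library 2 was lowest of all. The b forms together held 13.8%, 8.75% and 5.93% of Nrp2 TPM in controls and 18.6%, 14.4% and 14.2% in circSlc17a5 libraries, a difference of 6.24 points (exact permutation p = 0.1, adjusted 0.225). Nrp2a17 and Nrp2a22 together held 58.4% ± 4.2 and 63.2% ± 13.2 (SD, n = 3), with overlap (exact permutation p = 0.9).

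**Figure D2:**
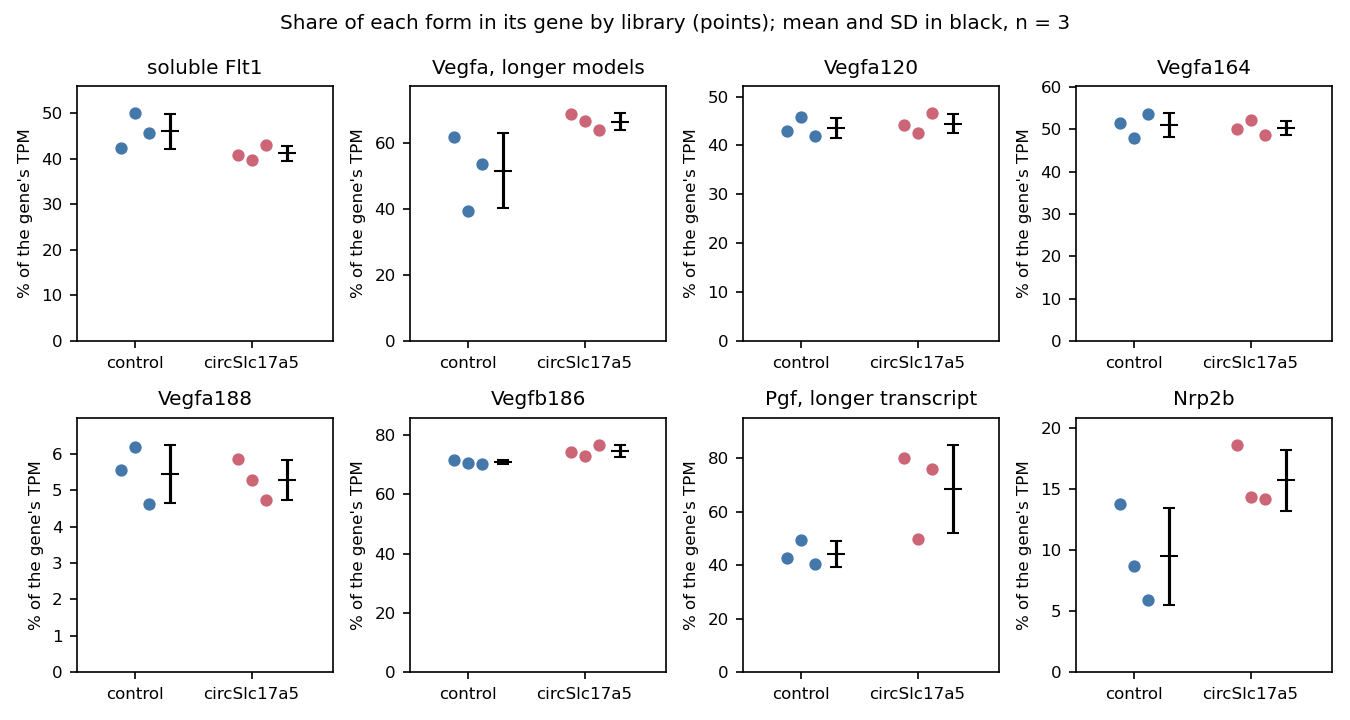
Share of the gene's TPM (vertical axis, percent) held by 8 forms in the 3 control (blue) and 3 circSlc17a5 (red) libraries, with the mean and SD in black. The groups do not overlap for the longer Vegfa models, Vegfb186, the longer Pgf transcript and Nrp2b. They overlap for soluble Flt1 and for Vegfa120, Vegfa164 and Vegfa188. How often shares of forms lack overlap over all genes is not given here. A related measure, mean transcript length per gene, lacked overlap for 27.1% (longer) and 7.5% (shorter) of 6495 genes.

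In the test across transcripts, edgeR called 2 of 28266 transcripts (0.00708%) and 0 of the 18 distinct member transcripts tested, of which 8 had an unadjusted p under 0.05, against 4160 of all tested transcripts (14.7%). DESeq2 called 3418 of the same 28266 (12.1%), 5.6% higher and 6.5% lower, and 4 of the 18. It called the longer Pgf transcript (2.30-fold, adjusted p = 0.0119, DESeq2) and Nrp2a17 (1.51-fold, adjusted p = 0.0253) higher. It called Vegfc (1.34-fold, adjusted p = 0.0112) and the short Vegfa164 model (1.46-fold, adjusted p = 0.0395) lower. The calls of single forms therefore depend on the tool.

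The longer Vegfa models were set beside all genes. The mean effective transcript length, weighted by TPM, was computed for 6495 genes with at least 100 counts on average and at least 2 transcripts of 10 or more counts. It was higher in circSlc17a5 libraries for 71.9% of these genes, without overlap for 1757 genes (27.1%), and lower without overlap for 487 (7.5%). Vegfa had a log2 difference in mean transcript length of 0.051 and Vegfb one of 0.0056, both without overlap. Nrp2 moved the other way, to shorter transcripts (-0.028, without overlap), and Flt1 overlapped (-0.011). The median deviation of mean length from the gene's own mean was lowest in control 2 (-0.00805 on the log2 scale) and highest in circSlc17a5 library 1 (0.00381), so control 2 stood lowest both here and in the share of the longer Vegfa models. The part that this shift over all genes plays in the Vegfa shares was not tested.

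**Figure D3:**
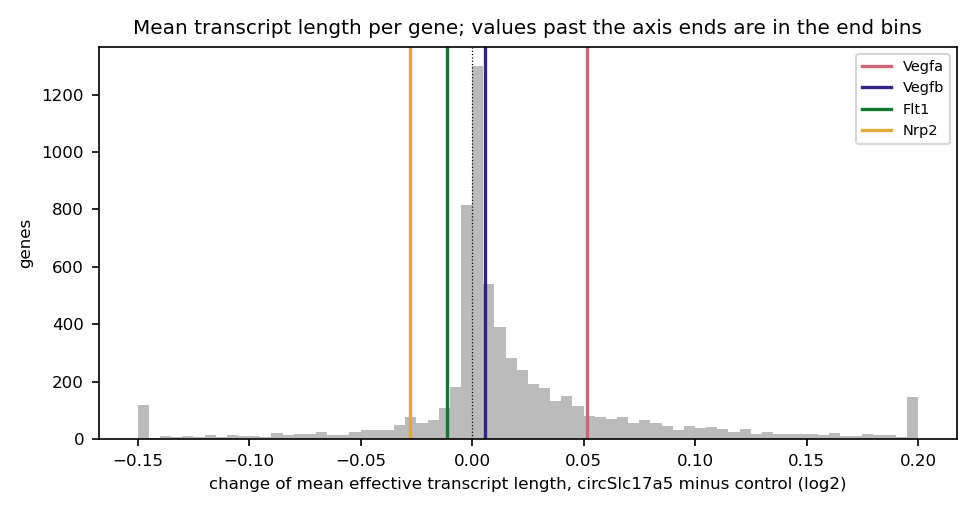
Number of genes (vertical axis) by the log2 difference in TPM-weighted mean transcript length, circSlc17a5 minus control (horizontal axis), for 6495 genes, with the values of 4 members as lines. Most genes lie right of 0, as do Vegfa (0.051) and Vegfb (0.0056), while Flt1 (-0.011) and Nrp2 (-0.028) lie left of it.

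Ratios between members were taken within each library on log2 normalised CPM with 0.5 added, so that a common scaling cancels in part. The added 0.5 weighs most on Nrp1, at 0.70 to 1.30 CPM, and lowers its ratios. Nrp2 over Nrp1 was 4.42, 4.23 and 4.16 in controls and 5.08, 4.81 and 5.26 in circSlc17a5 libraries, a difference of 0.78 without overlap. Pgf over Vegfa differed by 0.53 and Vegfc over Vegfa by -0.51, also without overlap. Each of these had an exact permutation p of 0.1 (two-sided, the smallest possible, 0.167 adjusted over 5 ratios). Vegfb over Vegfa differed by -0.45 (exact p = 0.2) and Flt1 over Vegfa by 0.087 (exact p = 0.3), both with overlap.

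**Figure D4:**
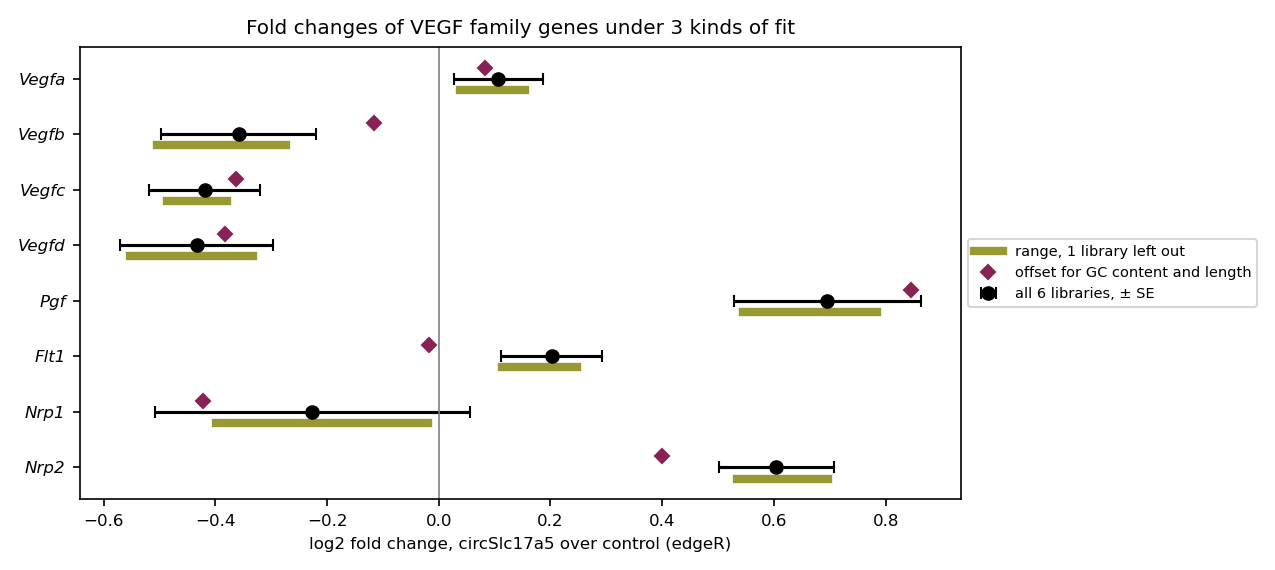
Log2 fold change by edgeR (horizontal axis) of the 7 tested members and Vegfd, with all 6 libraries (black, ± SE), with the offset for length and GC content (purple) and as the range over fits with 1 library left out (olive). The fold changes of Vegfa, Nrp2 and Pgf stay above 0 and those of Vegfb, Vegfc, Vegfd and Nrp1 below 0 in each. Of these, Vegfa, Vegfb and Nrp1 were not called, and the SE of Nrp1 reaches past 0. Flt1 moves from 0.20 to -0.02 with the offset.

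The other genes of the pathway were taken from lists of known roles and tested in the same fit. These lists were chosen with earlier results of these data known, so the counts below are no test of a list. Of 41 tested signal transducers downstream of VEGF receptors, 8 were called higher and 4 lower (against 11.8% and 10.2% of all genes), and the median log2 fold change was 0.076 against -0.00242 for all genes. With the offset the counts were 5 and 5 and the median 0.0079. The offset fit of all 11311 genes called 1156 higher and 1473 lower, with a median of -0.0268. The offset values of the lists below are to be read beside these. Prkcb, a protein kinase C, had 291, 251 and 267 counts in controls and 901, 694 and 682 in circSlc17a5 libraries, the largest rise among those called in this list (log2 fold change 1.44, SE 0.112, adjusted p = 7.76e-05, edgeR). Prkca rose by 0.63 and Plcg2, a phospholipase C, by 0.56. Hspb1, a small heat shock protein phosphorylated after VEGF, was 1.77-fold lower (log2 fold change -0.83, adjusted p = 0.00126). These 4 calls held with each library left out in turn. The calcineurin subunit gene Ppp3ca (-0.29) and the transcription factor gene Nfatc2 (-0.88, at 15 to 41 counts per library) were also called lower, whereas their paralogues Ppp3cb (0.28, adjusted p = 0.0393) and Nfatc1 (0.46, adjusted p = 0.0286, edgeR) were called higher. Each of these 4 calls held in 1 of 6 such fits.

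Among 11 tested partners of neuropilins, 4 were called higher and 0 lower, against 11.8% and 10.2% of all genes (median log2 fold change 0.156). The counts were the same with the offset, and the median was 0.0274. Plxna1 and Plxna2, plexins that transmit semaphorin signals beside neuropilins, had log2 fold changes of 0.61 (SE 0.110, adjusted p = 0.00784) and 0.55 (SE 0.0860, adjusted p = 0.0044, edgeR), and both calls held with each library left out. Plxna1 counts were 1581, 1178 and 1341 in controls and 2504, 1989 and 1987 in circSlc17a5 libraries, the same direction as Nrp2. Plxna4 rose too, from 3, 7 and 8 counts to 26, 23 and 18.

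Among 11 tested genes of oxygen sensing and hypoxia that act upstream of Vegfa, 3 were called higher and 1 lower, against 11.8% and 10.2% of all genes (median 0.074, and 0.0498 with the offset). Hif1a and Arnt, the subunits of the hypoxia-inducible factor, were higher by 0.36 (adjusted p = 0.0374) and 0.46 on the log2 scale (adjusted p = 0.0168, edgeR), and Sp1 by 0.27 (adjusted p = 0.0334). Egln1, the hydroxylase that marks Hif1a for destruction, was lower at -0.35 (adjusted p = 0.0385). The Arnt call held in 5 of 6 fits with 1 library left out and those of Hif1a and Sp1 in 1 and that of Egln1 in 2, and with the offset 1 gene of the list was called higher and 2 lower. Vegfa itself did not pass the test.

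Of 15 tested genes known to rise after VEGF in endothelium, 4 were called higher and 1 lower, against 11.8% and 10.2% of all genes (median 0.128). With the offset 3 were called higher and 1 lower (median 0.123). F3, tissue factor, had 572, 421 and 558 counts in controls and 837, 812 and 814 in circSlc17a5 libraries (log2 fold change 0.62, SE 0.105, adjusted p = 0.00607, edgeR). Vcam1, an adhesion molecule, had a log2 fold change of 0.45 and Hey1, a Notch target at 6 to 22 counts per library, one of 1.23. The transcription factor gene Klf2 was lower (-0.72, SE 0.127, adjusted p = 0.00689). The calls of F3 and Klf2 held with each library left out, those of Vcam1 and Hey1 in 3 and 2 of 6 fits.

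Among 18 tested genes of VEGF processing, trapping and receptor turnover, 0 were called higher and 1 lower, Mmp14, a membrane protease (-0.22, SE 0.0649, adjusted p = 0.0374, edgeR), against 11.8% and 10.2% of all genes. The Mmp14 call held in 1 of 6 fits with 1 library left out. The median of this list was 0.135, and with the offset -0.0016, with 0 called higher and 2 lower. In 17 tested genes of other vessel growth ligands and receptors, 4 were called higher and 2 lower, against 11.8% and 10.2% of all genes (median 0.071). With the offset 3 of 16 were called higher and 4 lower, and the median was -0.037. The balance over all genes turned with the offset too, to 1156 higher and 1473 lower, with a median of -0.0268. The PDGF receptor genes Pdgfrb and Pdgfra were higher by 1.18 (adjusted p = 0.00458) and 0.74 on the log2 scale (adjusted p = 0.0132, edgeR). The log2 fold change of Pdgfa, a ligand gene of the list, was -0.53 (adjusted p = 0.0122, edgeR). Fgfr3, at 7 to 25 counts per library, was called higher as well, a call that held in 1 of 6 fits with 1 library left out and not by DESeq2 (adjusted p = 0.0958). Pdgfrb, at 24 to 30 counts in controls and 62 to 71 in circSlc17a5 libraries, and Pdgfra are also markers of mural cells and fibroblasts. Of 8 tested markers of those cells, 3 were called higher (Pdgfrb, Pdgfra and Notch3) and 1, Des, lower, against 11.8% and 10.2% of all genes. The summed level of the 13 listed markers ranged from 21.2 to 46.7 FPKM in controls and from 16.4 to 34.6 in circSlc17a5 libraries. Control 1 and circSlc17a5 library 2 carried the most counts of several of these markers. Col1a2 had 508, 3 and 0 counts in controls and 7, 257 and 77 in circSlc17a5 libraries, and Acta2 had 92, 4 and 1 against 4, 87 and 23. The part of such cells in these results was not tested. Without control 1 and circSlc17a5 library 2, Nrp2 (log2 fold change 0.71, adjusted p = 0.00091), Pgf (0.56, 0.0345) and Vegfc (-0.47, 0.0134, edgeR) were called. That fit called 1951 genes higher and 1729 lower, against 1386 and 1198 with all 6 libraries. It kept circSlc17a5 library 3, with its 77 Col1a2 counts. The summed level of the 14 listed endothelial markers lay between 25.25 and 28.8 FPKM in controls and between 22.8 and 27.15 in circSlc17a5 libraries. Of these markers, 0 of the 5 tested were called, against 22.0% of all tested genes.

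**Figure D5:**
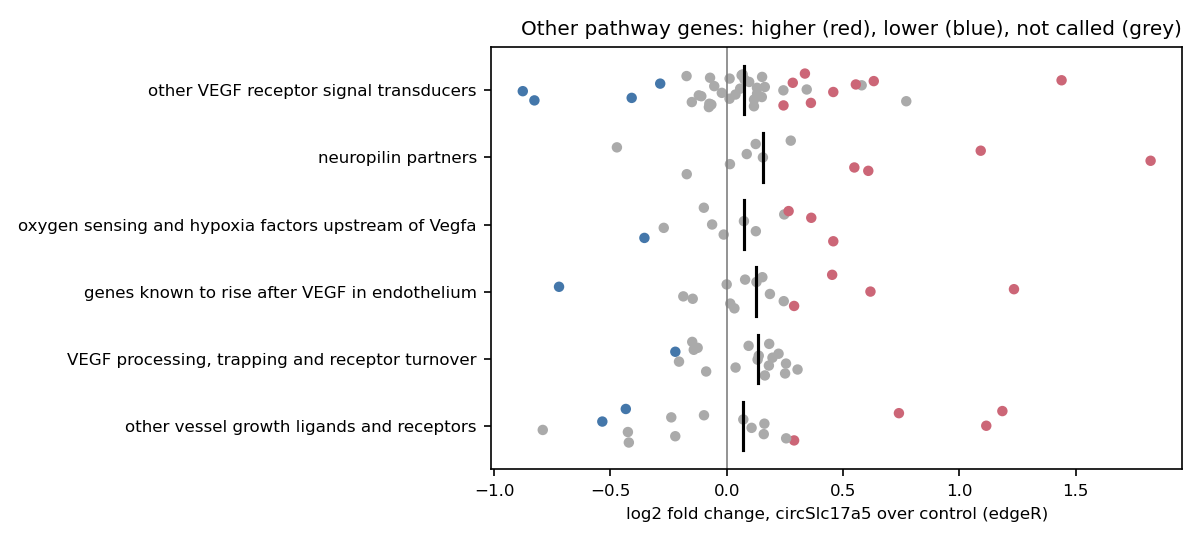
Log2 fold change by edgeR (horizontal axis) of each tested gene in 6 lists of the pathway, called higher in red, lower in blue and not called in grey, with the median of each list as a black line. With no offset, as plotted, the medians lie between 0.071 and 0.156, and most genes of each list were not called.

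The genes whose levels followed those of the called members most closely were found by the root mean square difference of centred log2 CPM over the 6 libraries, among 9754 genes with at least 100 counts on average. For Nrp2 they were Arhgap35 (0.0387), Kif14 (0.0410) and Hcfc1 (0.0429). For Pgf they were Ephb2 (0.0542), Pde2a (0.0749) and Cdt1 (0.0754), and for Vegfc Rfx1 (0.0300), Anpep (0.0358) and Ltbp3 (0.0364).

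The authors' deposited table of their own comparison gave q-values of 3.47e-05 for Nrp2, 0.0305 for Pgf and 0.0246 for Vegfc. For Vegfb, Flt1, Vegfa and Nrp1 the authors' deposited table gave q-values of 0.0755, 0.214, 0.491 and 0.861, and for Vegfd 0.0778, where the test used here gave an adjusted p of 0.0455 (edgeR).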

How the data were processed

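Total RNA was extracted with TRIzol and made into libraries with a SMARTer mRNA-Seq kit, per the labels' protocols. The authors deposited expected counts (estimated reads, of which 9.05% to 10.8% per library were not whole), FPKM and TPM per gene and transcript. The tools were RSEM 1.2.12, Bowtie2 2.2.5 and HISAT2 2.0.4, per the submitters' processing notes. A further table deposited by the authors holds log2 fold changes with p-values and q-values. The sources used here do not name the genome build of the gene table, and start and end of all 8 members equal those of RefSeq GRCm38.p6.

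Of 15399 genes 15398 were used. Expected counts were rounded and filtered by filterByExpr. In R 4.3.3, edgeR 4.0.16 with TMM scaling gave a two-sided quasi-likelihood F test of 3 against 3 libraries with no further term, and the same was done for transcripts. The SE is the absolute log2 fold change over the square root of F. The script was tested on simulated data. Transcript models of Vegfa with identical values were summed. Shares and ratios were compared by exact permutation. The offset used GC content and length, known for 96.5% of tested genes. Alternatives were DESeq2 1.42.0, limma 3.58.1 on log2(FPKM + 1), other scaling and filters, a replicate block and leaving out libraries. Named were all members, Vegfd, up to 3 called genes per list and direction, chosen further for space, and the 3 genes most alike each called member. The members and lists were chosen with earlier results of these data known. The transcript length comparison over all genes was chosen after seeing the data.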

Additional observations from a re-analysis of the deposited data

How the results depend on the processing

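Nrp2 kept its direction and its call under every alternative run. Flt1 turned from 0.20 to -0.017 with the offset for length and GC content. Of all genes, 1386 were called higher and 1198 lower. These counts were 1335 and 599 by limma on log2(FPKM + 1), 1325 and 596 with 0.1 added, 1156 and 1473 with the offset, and 346 to 2424 and 116 to 2275 with 1 library left out, highest without control replicate 1. Members called higher numbered 1 to 2 and lower 0 to 2 with 1 library left out, and 2 were lower without control replicate 1 and circSlc17a5 replicate 2. Correlations of deviations were 0.219, 0.0678 and 0.0649 between same-numbered libraries and -0.314 to 0.31 between differently numbered ones. These values, from 3 libraries per group, do not show whether the replicate numbers pair the libraries. With the replicate block 2324 genes were called higher and 2105 lower and 2 members lower, Vegfb among them (adjusted p = 0.00487, edgeR), and Nrp2a0 had a log2 fold change of -0.13. Signs of single transcripts turned with 1 library left out for Nrp2a0 (-0.23 to 0.44), each longer Vegfa188 model (-0.0080 to 0.39), the shorter Pgf transcript (-0.92 to 0.0096) and soluble Flt1 (-0.040 to 0.12). With 1 library left out the genes called higher numbered 3 to 12 among signal transducers, 2 to 5 among neuropilin partners, 0 to 4 in oxygen sensing, 1 to 6 among VEGF-responsive genes, 0 to 6 in processing and turnover and 1 to 5 in other vessel growth. At these depths changes of Kdr and Nrp1 could not be detected unless large.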
